A study of Mus musculus with 8 samples.

Results

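Skeletal muscle lies at the base of embryonic mouse skin, and 40 genes of its contractile apparatus, its calcium handling, its energy supply and its control by transcription factors were followed in libraries from skin with altered retinoic acid breakdown. The 40 genes were chosen by symbol, and all of them were present in each of 3 deposited tables, with 53 of 27641 RefSeq transcripts and 40 of 21882 gene symbols. The values are FPKM (fragments mapped to a transcript, scaled by its length and by library size) summed over the transcripts of a symbol. All 8 libraries came from C57BL/6 embryos. At embryonic day 16.5 (E16.5), whole skin of wild-type embryos was compared with whole skin of Cyp26b1-/- embryos, in which the gene for a retinoic acid-degrading P450 was inactivated, and each deposited column pools 2 libraries. Skin taken at E18.5 was split into its dermal and epidermal layers. For each layer 1 library labelled En1cre;Cyp26b1f/- was compared with 1 control library labelled Cyp26b1f/+, so that the control carries a floxed allele and a wild-type allele and no En1cre by its label. The En1cre driver recombines in cells that have expressed Engrailed 1, which in the trunk include cells of the dermomyotome that give rise to dermis and to muscle. The mutant also has 1 intact Cyp26b1 allele fewer outside those cells, and the labels do not say which exons are missing. The labels number the E18.5 dermis libraries 1 (control) and 7 (mutant) and the epidermis libraries 6 and 9, and nothing ties a dermis library to an epidermis library. Whether the E16.5 libraries came from separate animals is not stated, so that the p-values there describe these libraries. Read depth is unknown because FPKM do not carry it.

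In a muscle fibre, myosin heavy chains with their light chains pull on actin filaments, and the troponin and tropomyosin complex on actin opens when calcium is released from the sarcoplasmic reticulum through the ryanodine receptor. Fast and slow fibres use different genes for most of these proteins. Developing muscle first makes embryonic and neonatal forms and cardiac-type actin and replaces them later by adult forms. In mouse skin the main source of these transcripts is the panniculus carnosus, a thin sheet of striated muscle under the dermis, and retinoic acid is known to act on muscle precursor cells. Bulk libraries cannot tell apart fewer muscle fibres in a sample and less RNA per fibre.

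The myosin heavy chain genes of developing and adult fast fibres sit side by side on chromosome 11 (mm9), in the order Myh3, Myh2, Myh1, Myh4 and Myh8, from 66891802 to 67122135. Promoter sequences are shown for genes of this cluster with different stages of use and for the skeletal actin gene Acta1 and the slow myosin binding protein gene Mybpc1, since these genes carry the results below. Each run is the 250 bases before the annotated start, 5′ to 3′ on the gene's strand, from RefSeq on build GRCm38.p6. Capitals mark 4 motifs on either strand, which are CAGCTG, the MEF2 motif, the CArG box and TATAAA.

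Myh3, chr11:67078050-67078299, plus strand: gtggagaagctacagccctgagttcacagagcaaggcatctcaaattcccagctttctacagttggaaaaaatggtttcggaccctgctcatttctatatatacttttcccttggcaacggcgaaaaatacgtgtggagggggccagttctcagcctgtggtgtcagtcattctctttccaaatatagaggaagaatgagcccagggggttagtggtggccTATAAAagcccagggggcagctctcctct

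Myh8, chr11:67276874-67277123, plus strand: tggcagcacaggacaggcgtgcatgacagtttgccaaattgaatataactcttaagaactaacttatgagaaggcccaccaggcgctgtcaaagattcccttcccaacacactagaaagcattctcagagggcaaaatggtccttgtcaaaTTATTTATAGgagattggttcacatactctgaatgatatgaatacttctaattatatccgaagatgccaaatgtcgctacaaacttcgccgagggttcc

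Myh1, chr11:67199852-67200101, plus strand: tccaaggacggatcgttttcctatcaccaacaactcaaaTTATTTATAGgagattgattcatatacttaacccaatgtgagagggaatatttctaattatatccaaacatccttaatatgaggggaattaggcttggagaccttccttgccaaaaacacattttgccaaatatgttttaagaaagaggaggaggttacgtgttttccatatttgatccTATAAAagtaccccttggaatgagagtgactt

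Myh4, chr11:67237562-67237811, plus strand: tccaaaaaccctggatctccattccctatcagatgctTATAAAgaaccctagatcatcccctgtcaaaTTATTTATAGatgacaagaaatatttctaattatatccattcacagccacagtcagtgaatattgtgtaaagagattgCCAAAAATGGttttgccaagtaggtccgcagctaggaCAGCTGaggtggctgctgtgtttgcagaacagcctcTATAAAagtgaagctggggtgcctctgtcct

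Acta1, chr8:123894776-123895025, minus strand: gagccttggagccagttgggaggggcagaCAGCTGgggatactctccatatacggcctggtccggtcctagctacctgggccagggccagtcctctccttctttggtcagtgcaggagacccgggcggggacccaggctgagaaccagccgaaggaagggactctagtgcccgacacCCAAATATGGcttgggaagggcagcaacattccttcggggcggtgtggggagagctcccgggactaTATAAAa

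Mybpc1, chr10:88605153-88605402, minus strand: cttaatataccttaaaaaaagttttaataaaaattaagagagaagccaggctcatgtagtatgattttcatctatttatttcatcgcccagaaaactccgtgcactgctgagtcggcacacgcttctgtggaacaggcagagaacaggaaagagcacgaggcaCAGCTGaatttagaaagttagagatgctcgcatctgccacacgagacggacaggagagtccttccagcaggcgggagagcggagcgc

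The promoters of Myh8, Myh1 and Myh4 shared the 15-base run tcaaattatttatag, which holds the MEF2 match, and the 14-base run ttctaattatatcc. No run of 10 or more bases was shared between the Myh3 and Myh8 windows. Of the 40 members, 33 had a promoter in the RefSeq table. CAGCTG, the form of the E-box CANNTG favoured by MyoD family factors, stood in 16 of 33 members (48.5%) and in 3979 of 27025 symbols with a promoter (14.7%). The general form CANNTG, which includes CAGCTG, was found in 28 of 33 members (84.8%, against 69.3% of all symbols). The MEF2 motif was found in 5 of 33 members (15.2%, against 3.42%), the CArG box bound by serum response factor in 4 (12.1%, against 1.62%), and TATAAA in 9 (27.3%, against 14.3%). The TATAAA count includes matches on the minus strand that overlap the MEF2 matches of Myh1, Myh4 and Myh8. These matches describe the sequences and are not binding data.

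The targeted gene was read first. Cyp26b1 summed over its transcripts went from 34.95 to 58.2 FPKM at E16.5, from 54.2 to 101.7 FPKM in dermis and from 4.97 to 13.7 FPKM in epidermis, so that this sum was not lower in any mutant column. By transcript, NM_001177713 was lower in E16.5 null skin, at 19.4 and 14.4 FPKM, and NM_175475 higher, at 15.5 and 43.8 FPKM. FPKM of whole transcripts leave the genotype unchecked if only some exons were removed, so that directions between genotypes rest on the sample labels. The median gene also shifted, by 0.43, 0.12 and -0.18 on the log2(FPKM + 1) scale in E16.5 skin, dermis and epidermis. Folds are therefore given relative to the median.

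Muscle transcripts were abundant in E16.5 skin. Acta1, which encodes the actin of adult skeletal muscle, was the highest member, at 829 FPKM in wild-type and 970.4 FPKM in null skin. Mylpf, the regulatory light chain of fast fibres, stood at 696 and 814 FPKM, and Actc1, the cardiac actin that developing muscle also uses, at 565 and 678 FPKM. The order of these 3 genes was the same in both groups. At least 1 FPKM was reached by 38 of 40 members in wild-type and by 39 in null skin. E18.5 dermis held the same genes at other levels, with Acta1 at 799 and 1874 FPKM in control and mutant, and Actc1 at only 36.0 and 299.9 FPKM. In E18.5 epidermis, a layer without muscle fibres, Acta1 was at 35.5 and 22.1 FPKM and only 17 of 40 control values and 13 mutant values reached 1 FPKM. The tables were normalised separately, so that levels set side by side across them carry no test.

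**Figure D1:**
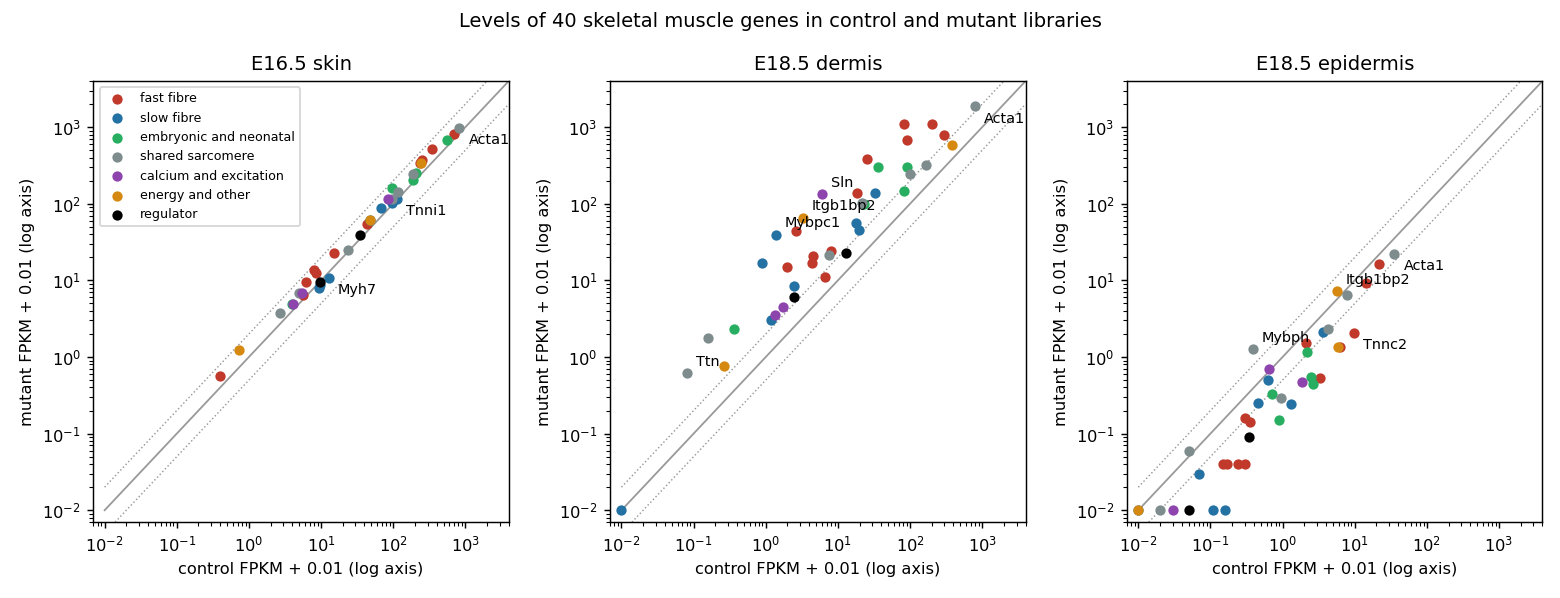
Control (x axis) against mutant (y axis) FPKM of the 40 genes on log axes after adding 0.01, for E16.5 skin, E18.5 dermis and E18.5 epidermis; colours give the fibre type or role, the solid line marks equal values and the dotted lines a 2-fold difference. The E16.5 points follow the line, all dermis points with a signal lie above it, and 34 of 40 epidermis points lie below it.

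In E16.5 skin, muscle genes followed the median gene or lay below it in null embryos, and the lower calls included slow fibre genes. Of 39 tested members, 0 rose and 7 fell relative to the median gene, in the authors' test statistic recomputed after subtracting the median deposited log2 fold of 0.47 (normal p, Benjamini-Hochberg adjustment at 0.05 over all transcripts). The background was 8.19% of 16284 tested genes called higher and 9.98% called lower. At an unadjusted p under 0.05, 2 members lay above the median and 9 below it, where 14.1% of 16119 genes lay above and 16.3% below. The authors' deposited table, which is not centred, called 17 members higher and 0 lower, where it called 54.6% of all genes higher and 3.46% lower. In FPKM, 37 of 40 members were higher in null skin and 3 were lower. The direction at E16.5 thus depends on the reference, while the order of the members among themselves does not.

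Many slow fibre genes lay towards the lower end of that order, next to Myod1 and Mybph. All 8 lay below the median gene, with a median fold of -0.38 on the log2(FPKM + 1) scale, and 3 of 8 fell. Myh7, the heavy chain of slow fibres, went from 12.7 FPKM in wild-type to 10.7 FPKM in null skin. Its deposited fold minus the median was -0.73 (SE 0.15, adjusted p = 1.92577e-05 with the SE from the authors' statistic). Tnnc1, the slow and cardiac troponin C, went from 97.4 to 101.3 FPKM, which is -0.42 relative to the median (SE 0.15, adjusted p = 0.0365 with the SE from the authors' statistic). Tnni1, the slow troponin I, fell through 1 of its transcripts. NM_001112702 went from 34.7 to 15.6 FPKM (-1.63, SE 0.22, adjusted p = 2.61021e-12 with the SE from the authors' statistic), while NM_021467 went from 77.4 to 100.2 FPKM (-0.10, SE 0.15, not called). The slow light chains Myl3 and Myl2 went from 9.23 to 7.93 and from 9.59 to 8.78 FPKM, and neither passed the test (adjusted p = 0.0642 and 0.195 with the SE from the authors' statistic). Casq2, the slow calsequestrin that stores calcium, went from 47.0 to 60.7 FPKM and Mybpc1, a slow myosin binding protein, from 68.3 to 87.5 FPKM, both within 0.12 of the median.

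Fast fibre genes lay around the median, with a median fold of 0.10 on the log2(FPKM + 1) scale over 10 members, of which 7 were above and 3 below it, and 0 of 11 tested members were called. Myh4, the heavy chain of the fastest fibres, went from 7.91 to 13.5 FPKM, and its fold of 0.30 relative to the median (SE 0.15) did not pass the test (adjusted p = 0.155 with the SE from the authors' statistic). Myh1 and Myh2, the other adult fast heavy chains, went from 6.12 to 9.56 and from 8.57 to 12.6 FPKM. The fast alkali light chain gene Myl1 has 2 transcripts, and NM_001113387 went from 172 to 290.3 FPKM while NM_021285 went from 178 to 227 FPKM. Their folds relative to the median were 0.28 (SE 0.14) and -0.12 (SE 0.14), and neither was called. The fast troponins Tnni2 and Tnnc2 went from 245 to 354 and from 238 to 345 FPKM, each 0.06 above the median (SE 0.14). Tnnt3, the fast troponin T, had a failed estimate in all 8 of its transcripts at E16.5 and was not tested there.

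Of the 5 genes on the embryonic and neonatal list, 0 were called. This list also holds Chrna1, which is not itself a developmental form. The embryonic heavy chain Myh3 went from 207 to 254 FPKM and the neonatal heavy chain Myh8 from 97.0 to 159 FPKM, with folds of -0.18 (SE 0.19) and 0.24 (SE 0.17) relative to the median. The heavy chain folds ran from Myh7 over Myh3, Myh2, Myh1 and Myh8 to Myh4, and differences between neighbours in this order were not tested. Myl4, the embryonic alkali light chain, went from 185 to 207 FPKM and Chrna1, the receptor subunit for acetylcholine, from 3.99 to 4.92 FPKM.

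Myod1, a master regulator of muscle fate, was among the lower calls. It stood at 9.53 and 9.58 FPKM, so that the call comes from the shift of the median alone (-0.47, adjusted p = 0.0474 with the SE from the authors' statistic). Because its deposited fold is near 0, rounding leaves its unadjusted p anywhere between 0.00122 and 0.0293, and the largest p that passed was 0.00817. Myog, which acts after it in differentiation, stood at 34.9 and 39.5 FPKM and did not pass the test. Mybph, a myosin binding protein of developing fibres, went from 23.9 to 24.6 FPKM (-0.43, SE 0.16, adjusted p = 0.0468 with the SE from the authors' statistic). Rounding leaves its unadjusted p between 0.00581 and 0.00954, so that this call too is lost at the upper end. The other lower calls rest on transcripts at low levels. The giant spring protein gene Ttn was called through NM_011652, from 0.21 to 0.17 FPKM, while its main transcript NM_028004 went from 2.51 to 3.54 FPKM. The myoglobin gene Mb was called through NM_013593, listed at 0.33 and 0 FPKM, which kept the authors' call without centring. Its transcript NM_001164048 went from 0.38 to 1.24 FPKM. The authors' deposited test called that transcript higher (q = 0.0166) and the centred test did not call it. The sum of the Mb transcripts went from 0.71 to 1.24 FPKM. Without centring, the authors' deposited table marked 2 member transcripts lower, which were Mb NM_013593 and Tnni1 NM_001112702. Tropomyosin Tpm2, nebulin (Neb), desmin (Des) and the alpha-actinin Actn2, which build and anchor the filaments, were not called, with folds between -0.22 and 0.00 relative to the median. In calcium handling and excitation, 0 of 7 members were called. The calcium pump gene Atp2a1 went from 43.6 to 53.7 FPKM, its inhibitor Sln from 84.9 to 116 FPKM, and the release channel Ryr1 from 5.43 to 6.9 FPKM. Itgb1bp2, which encodes the integrin-binding protein melusin, and Ckm, the muscle creatine kinase, were not called either, at 0.12 and 0.01 below the median.

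**Figure D2:**
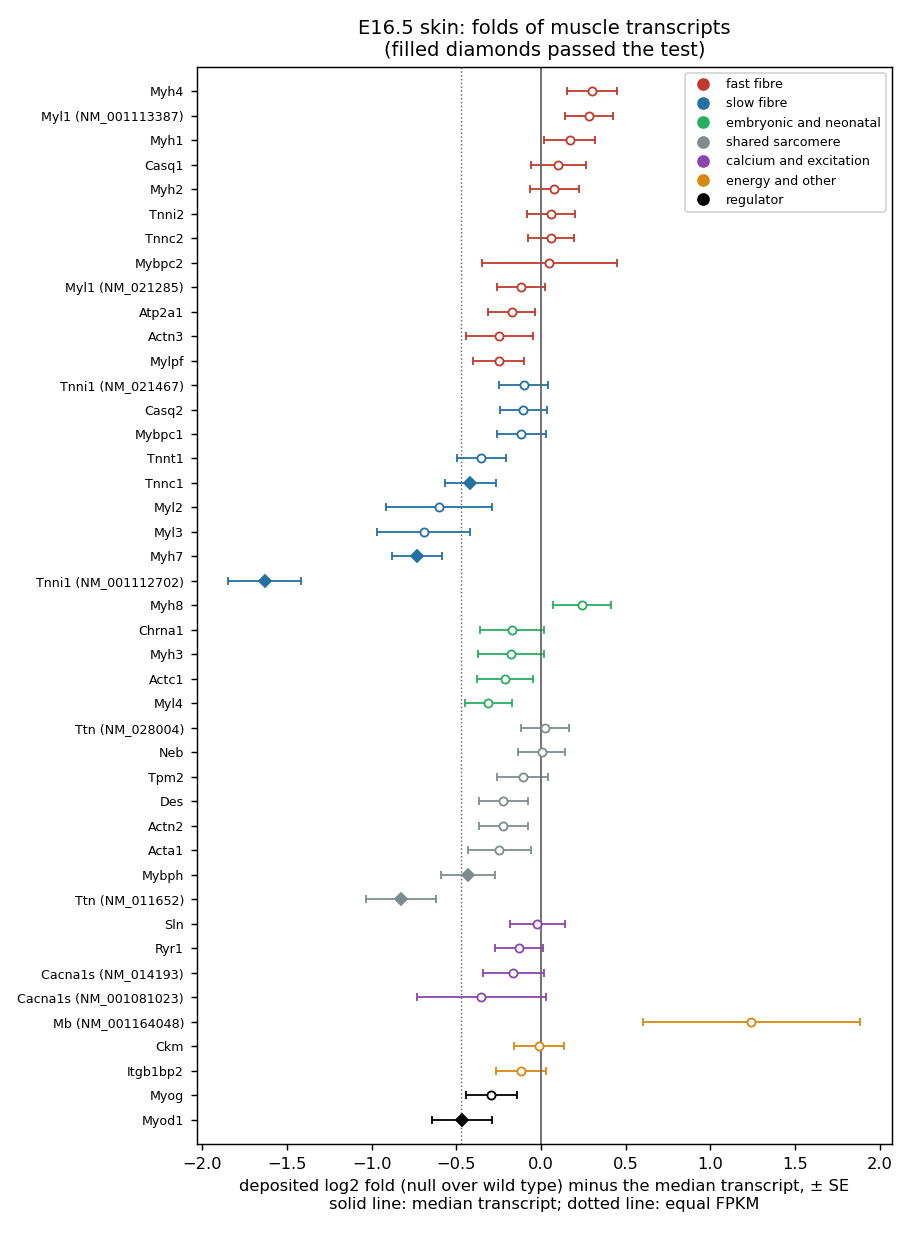
Deposited log2 fold of null over wild-type skin at E16.5 minus the median transcript (x axis), with the SE implied by the deposited statistic, for each muscle transcript with a finite fold (y axis), coloured by fibre type or role; filled diamonds passed the test. Fast transcripts lie around 0 and slow ones at or below it, down to -1.63 for a Tnni1 transcript.

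Other muscle genes outside the 40 also lay close to the median gene. Of 78 tested genes of the satellite cell, Z disc, triad, endplate, energy and chaperone lists, 2 rose and 7 fell. Over all tested genes, 8.19% were called higher and 9.98% lower. The median log2 fold of the 73 listed genes with a fold was -0.21. Of the 2 higher calls, Sgca went from 5.22 to 6.33 FPKM, and its summed fold was -0.19 relative to the median. The lower calls included Cox7a1, a heart and muscle subunit of cytochrome oxidase, at 77.5 and 48.9 FPKM, and Kcnj12, a potassium channel gene, at 16.9 and 2.45 FPKM. Among markers of other cells, all 8 lens genes rose in null skin, with a summed level of 6.78 against 1997 FPKM, and the adipocyte markers had a median of -0.59 with 6 of 10 called lower. Of 8 tested cardiac markers 2 rose and 1 fell. The atrial light chain gene Myl7 was at 5.06 and 14.9 FPKM and Myh6 at 5.21 and 4.54 FPKM, while Mybpc3, Nppa and Pln were under 0.4 FPKM in both groups. Tnnt2, the cardiac troponin T gene, was listed at 89.9 and 126 FPKM with a failed estimate. Dermal fibroblast markers had a median of -0.14, close to that of all 38 members with a fold at -0.13. The part of these cells in the muscle values was not tested.

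The share of an isoform within its own family does not depend on the scaling of a library. In wild-type skin at E16.5, Myh3 made up 61.0% of the summed FPKM of 6 heavy chain genes, Myh8 28.6%, the adult fast genes Myh1, Myh2 and Myh4 together 6.66% and the slow Myh7 3.76%. In null skin the same shares were 55.3%, 34.7%, 7.76% and 2.32%. The embryonic and slow shares were thus lower and the neonatal and adult fast shares higher in null skin. The fast troponin I gene Tnni2 made up 68.6% of troponin I in wild-type and 75.4% in null skin, or 76.0% and 77.9% with the most abundant transcript of each gene alone. Tnnc2 made up 71.0% and 77.3% of troponin C. Casq1, the fast calsequestrin, made up 24.3% and 27.1% of calsequestrin, while Acta1 made up 59.5% and 58.9% of sarcomeric actin. Each of these shares is from pooled libraries and has no replicate error.

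In both E18.5 dermis libraries, the neonatal chain led. Myh8 stood first with 68.5% in control and 64.6% in mutant dermis, and Myh3 made up 17.7% and 21.5%. The adult fast heavy chains made up 12.8% and 13.3%, and Myh7 0.90% and 0.65%. Tnni2 made up 93.9% and 94.6% of troponin I, Tnnc2 91.7% and 95.1% of troponin C, and Casq1 74.9% and 72.5% of calsequestrin. These shares lay close together in control and mutant dermis, although the summed level of the 6 heavy chains went from 132 to 466 FPKM. Families with a larger difference were the actins, the alkali light chains and the myosin binding proteins C. Actc1 made up 4.31% of actin in control and 13.8% in mutant dermis. Myl1 made up 22.5% and 71.1% of alkali light chains, or 20.3% and 55.5% with the most abundant transcript of each gene alone. Mybpc1 made up 41.3% and 72.5% of myosin binding protein C. Its control share rests on low levels, 1.37 FPKM of Mybpc1 and 1.95 FPKM of Mybpc2. Actn2 made up 76.9% and 90.2% of alpha-actinin. Tnnt3 made up 74.0% and 83.1% of troponin T, but 60.7% and 64.4% with the most abundant transcript of each gene alone. The heavy chain shares of the epidermis libraries were similar to those of dermis, with Myh8 at 63.3% and 65.2%, although the summed levels were only 4.12 and 0.66 FPKM.

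**Figure D3:**
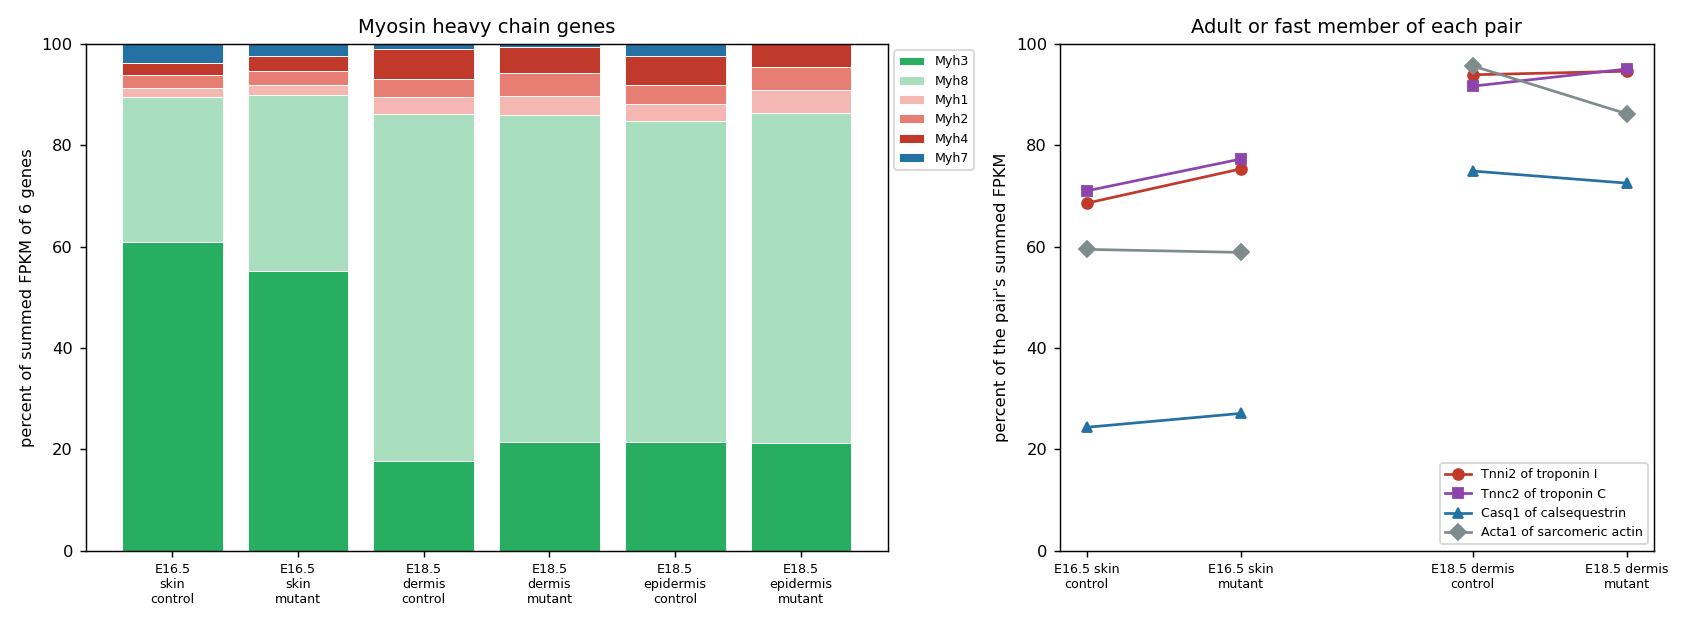
Left, percent of the summed FPKM of 6 myosin heavy chain genes taken by each gene in the 6 columns; right, percent of the pair's summed FPKM taken by the fast or adult member of 4 pairs in skin and dermis. Myh3 leads in E16.5 skin and Myh8 in the E18.5 libraries, and the Tnni2 and Tnnc2 shares are above 90% in dermis.

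Dermis at E18.5 had more muscle transcripts in the library labelled mutant. Of the 37 members with at least 1 FPKM in either library, 37 lay above the median gene, 28 by 2-fold or more and 0 below it by 2-fold, where 14.0% of 13398 genes were 2-fold higher and 13.9% were 2-fold lower. Their median log2 fold, with 1 FPKM added to each value, was 1.47. With 1 library per group there is no test, and these are differences between 2 libraries. The series' description speaks of duplicates, but its labels list 1 library for each E18.5 group, and the table headers do not say how many libraries an E18.5 column holds. A statistic on the reads of these libraries in the authors' deposited table marked 19 of 48 tested member transcripts, from 15 genes, all of them higher, where it marked 2.31% of 18473 transcripts higher and 1.72% lower. Not in the count were Myl2, listed at 0 in both libraries, and Ttn and Mb, which stayed under 1 FPKM. Casq2, Chrna1 and Neb entered it through the mutant library only, so that the filter favours a higher fold for them.

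The 3 largest folds were those of Sln, Mybpc1 and Itgb1bp2. This order depends on the pseudocount. With 5 FPKM added, Myl1 stood at 3.62, Mylpf at 3.58, Sln at 3.57, Itgb1bp2 at 3.03 and Mybpc1 at 2.73. Sln, the peptide that inhibits the calcium pump, went from 6.00 FPKM in control to 132 FPKM in mutant dermis, a log2 fold of 4.13 relative to the median. The slow thick filament gene Mybpc1 went from 1.37 to 39.5 FPKM (3.97). Itgb1bp2 went from 3.23 to 65.9 FPKM (3.86). These 3 genes were 22.1, 28.9 and 20.4 times higher in FPKM, before subtraction of the median. Casq1 went from 2.63 to 44.2 FPKM (3.52), Casq2 from 0.88 to 16.7 FPKM (3.12) and the pump gene Atp2a1 from 18.3 to 137 FPKM (2.72). Of the 7 calcium and excitation genes, some of which also count as fast, slow or embryonic, 5 were 2-fold higher. The channels themselves differed less, with Ryr1 at 1.71 and 4.43 FPKM (0.88) and its voltage sensor Cacna1s at 1.33 and 3.49 FPKM (0.82).

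Fast fibre genes were 2-fold higher in 11 of 12 cases, with a median log2 fold of 2.32. Myl1 went from 25.0 to 384 FPKM (3.77), Mylpf from 83.5 to 1108 FPKM (3.59) and Tnnt3 from 91.7 to 680 FPKM (2.76). Among the 40 genes in the mutant library, Mylpf came second after Acta1. Tnnc2 went from 199 to 1087 FPKM (2.32) and Tnni2 from 299 to 799 FPKM (1.29). The adult heavy chains Myh1, Myh2 and Myh4 went from 4.40 to 17.0 FPKM, from 4.5 to 20.9 and from 7.98 to 24.1 FPKM, with folds of 1.61, 1.87 and 1.36. Actn3, the fast alpha-actinin, was the fast gene that stayed under 2-fold, at 6.59 and 11.1 FPKM (0.55).

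Slow fibre genes were 2-fold higher in 6 of 7 cases, with a median of 1.47. Tnnt1, the slow troponin T, went from 32.2 to 138 FPKM (1.94) and Tnnc1 from 18.1 to 56.4 FPKM (1.47). Myh7, which had fallen relative to the median in E16.5 null skin, went from 1.18 to 3.01 FPKM (0.76). Of the 5 genes on the embryonic and neonatal list, 4 were 2-fold higher. Actc1 went from 36.0 to 299.9 FPKM (2.90), Myh3 from 23.3 to 100.01 FPKM (1.93), Myh8 from 90.2 to 301 FPKM (1.60) and Chrna1 from 0.35 to 2.29 FPKM (1.16), while Myl4 went from 83.8 to 148 FPKM (0.69). Fast, slow and developmental forms were thus all higher in the mutant library.

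Genes shared by all fibres had a median of 1.16, and the regulators 0.78. Acta1 went from 799 to 1874 FPKM (1.11), Des from 98.6 to 245 FPKM (1.18), Actn2 from 21.9 to 103 FPKM (2.06) and Tpm2 from 167 to 322 FPKM (0.82). Ckm went from 379 to 584 FPKM (0.50), the smallest fold among the 37 members. The regulators Myog (13.2 to 22.9 FPKM, a fold of 0.64) and Myod1 (2.47 to 6.15 FPKM, a fold of 0.92) were both higher, neither of them 2-fold relative to the median. The giant genes were low in dermis, where Neb went from 0.15 to 1.74 FPKM (1.13) and Ttn from 0.07 to 0.60 FPKM, against 4.94 and 2.72 FPKM in wild-type skin at E16.5. Over all genes, the level in control dermis relative to wild-type skin had a median log2 of -0.07 for transcripts up to 1000 bases and -0.91 for those over 8000 bases. The members had medians of -1.56 up to 1000 bases (7 genes), -0.96 from 4001 to 8000 bases (8 genes) and -1.81 above (2 genes). The last bin holds only Neb and Ryr1, without Ttn, and adding 1 FPKM understates the difference of such low genes. Whether length bears on the members was not tested. The mutant to control fold in dermis varied less with length, from a median of -0.24 for transcripts up to 1000 bases to 0.08 for those of 2001 to 4000 bases.

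**Figure D4:**
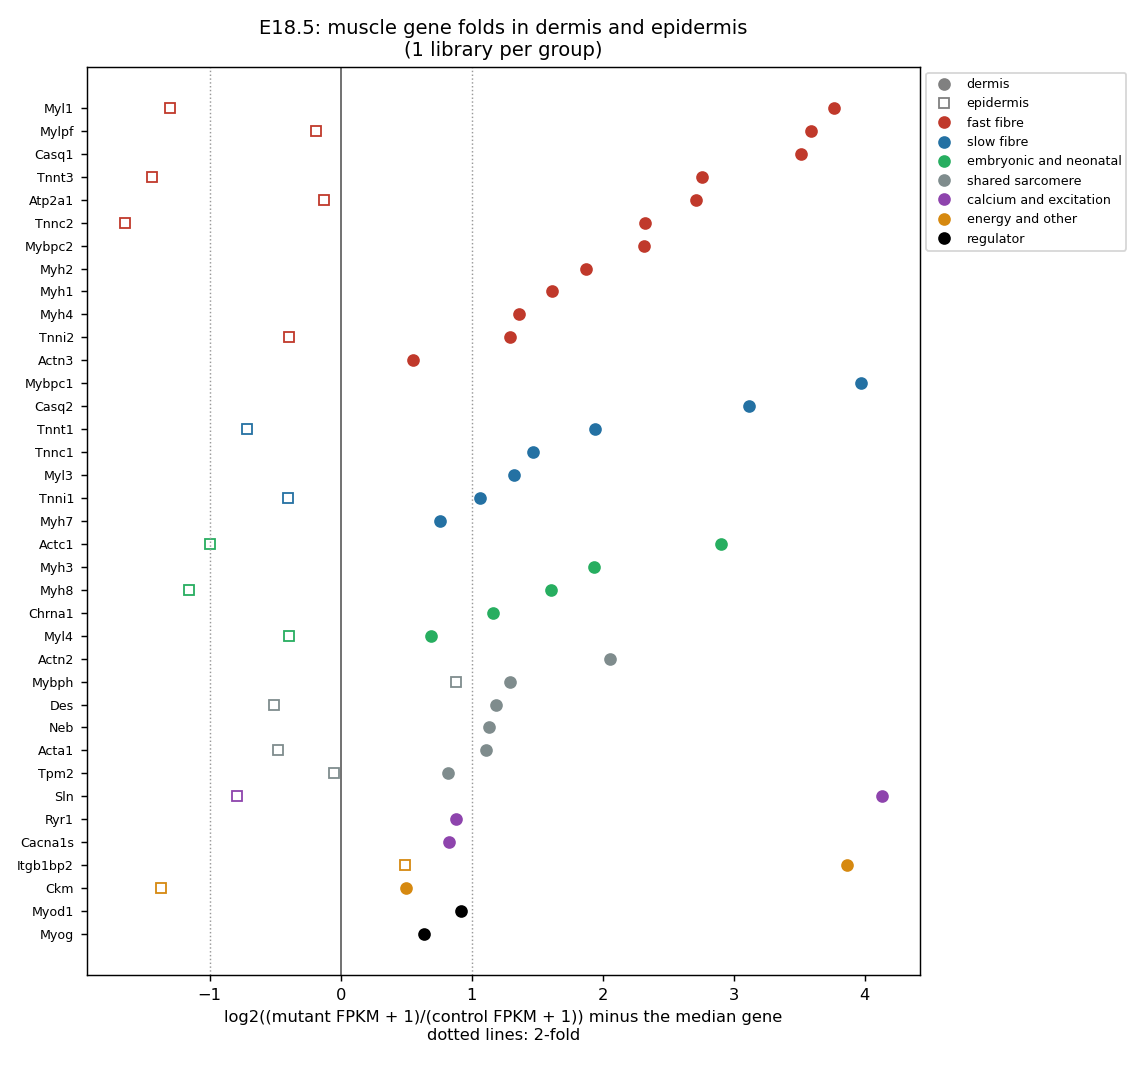
Log2 fold of mutant over control FPKM, with 1 added to each, minus the median gene (x axis) for each muscle gene with at least 1 FPKM (y axis), in dermis (filled circles) and epidermis (open squares), 1 library per group. All 37 dermis values lie above 0, up to 4.13 for Sln, and 16 of 18 epidermis values lie below it.

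Muscle genes outside the 40 were mostly higher in dermis too. Of 72 such genes with at least 1 FPKM, 39 were 2-fold higher and 0 were 2-fold lower, with a median of 1.23. Over all genes, 14.0% were 2-fold higher and 13.9% lower. Tmem8c, which drives myoblast fusion, went from 0.96 to 12 FPKM, and Eno3, the muscle enolase, from 37.3 to 269 FPKM. In contrast, Pax3 went from 3.75 to 1.87 FPKM, and Tcap, a cap protein of titin, from 26.1 to 14.2 FPKM. Pax3 was the lowest gene of the satellite and myoblast list. That list had a median of 0.53, with 5 of its 8 genes with a fold above the median gene and 3 below it.

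Markers of other cells also differed between these dermis libraries. All 9 keratinocyte markers were below the median gene, 8 of them by 2-fold, and their summed level went from 16392 to 4965 FPKM. Krt5 and Krt14, keratins of the basal epidermis, stood at 6265 and 4276 FPKM in the control library labelled dermis, above their 2634 and 1496 FPKM in the control epidermis. Krt15 was at 1447 and 1525 FPKM in these control libraries, and Lor, a gene of the cornified layer with a failed estimate in the epidermis table, at 621 and 21262 FPKM. Dermal fibroblast markers were higher, 6 of 7 above the median gene and 3 by 2-fold, with Dcn from 53.8 to 358 FPKM and Dpt from 48.6 to 414 FPKM. Smooth muscle markers had a median of 0.73, and 3 of 10 were 2-fold higher. These were Acta2, from 40.9 to 165 FPKM, Actg2, from 4.12 to 13.5 FPKM, and Ldb3, from 10.5 to 43.2 FPKM, a Z disc gene that is also in the striated muscle lists. Adipocyte markers had a median of -1.40, with 5 of 9 at least 2-fold lower and 2 at least 2-fold higher. Their range ran from Cfd (61.9 to 0.66 FPKM) to Fabp4 (73.2 to 317 FPKM), and their summed level went from 452 to 415 FPKM. The 3 heart markers with a fold had a median of 0.11, among them Myh6 at 0.93 and 1.10 FPKM, and Nppa was at 0.22 and 0.23 FPKM. The cardiac troponin T gene Tnnt2 was higher, listed at 7.53 and 40.9 FPKM, but had a failed estimate and is not in this median. The collagen genes Col1a1, Col1a2 and Col3a1 were listed at 0 in mutant dermis with a failed estimate and are not in these values. The part of these cells in the muscle difference was not tested, and with 1 library per group genotype and sample cannot be told apart.

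**Figure D5:**
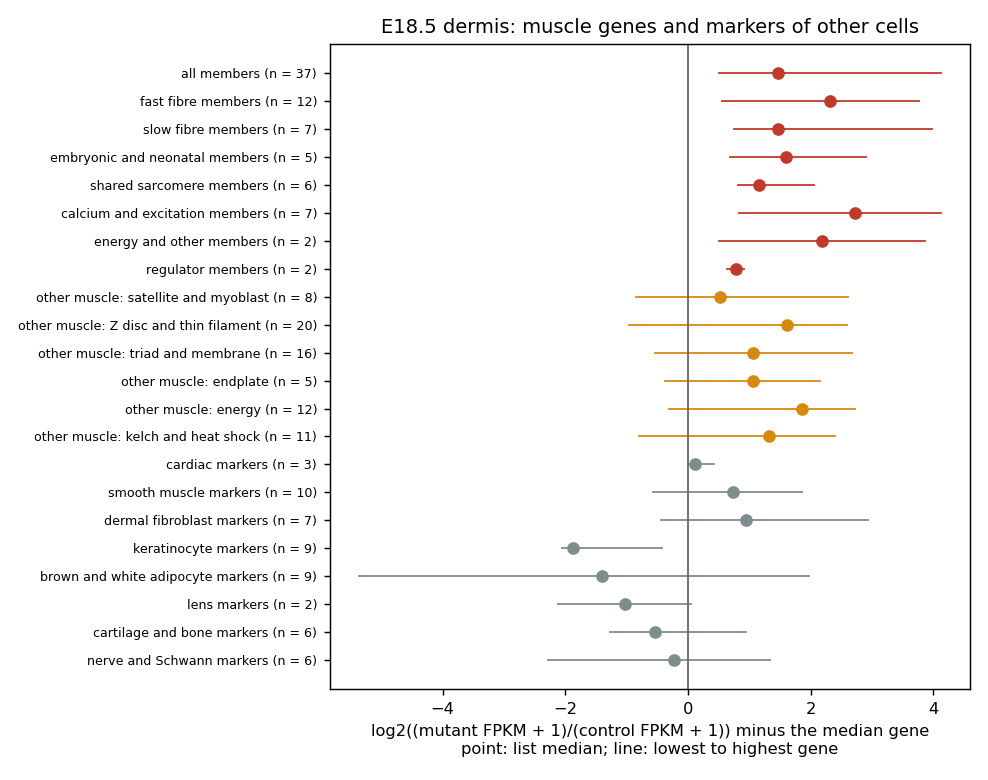
Log2 fold of mutant over control dermis minus the median gene (x axis) for the muscle genes by role (red), other muscle genes (orange) and markers of other cells (grey), where points are list medians, lines run from the lowest to the highest gene and n counts genes with at least 1 FPKM. Muscle medians lie between 0.53 and 2.72, the fibroblast median at 0.95 and the keratinocyte median at -1.88.

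In E18.5 epidermis the muscle transcripts were scarce and lower in the mutant library. Of 18 members with at least 1 FPKM in either library, 16 lay below the median gene, 5 of them by 2-fold, and 0 were 2-fold higher, where 4.86% of 11362 genes were 2-fold lower and 3.49% were 2-fold higher. The median log2 fold was -0.49. The authors' deposited table marked 1 of 30 tested member transcripts, that of Myh8, lower, and of 15934 transcripts 3.56% lower and 1.22% higher. Tnnc2 went from 9.85 to 2.06 FPKM (-1.65), Tnnt3 from 6.16 to 1.34 FPKM (-1.44) and Ckm from 5.82 to 1.33 FPKM (-1.37). Myl1, from 3.27 to 0.53 FPKM (-1.30), and Myh8, from 2.61 to 0.43 FPKM (-1.16), were the other 2-fold lower genes. Both reached 1 FPKM in the control library only, as did Actc1, Tnnt1 and Sln, so that the filter favours a lower fold for these genes. Mybph reached it in the mutant library only. The most abundant member, Acta1, went from 35.5 to 22.1 FPKM (-0.48). Above the median were Itgb1bp2, from 5.65 to 7.28 FPKM (0.49), and Mybph, from 0.38 to 1.25 FPKM (0.88). The 22 other members were under 1 FPKM in both libraries, including Myh3, Myog and Myod1.

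Dermal fibroblast markers were lower in mutant epidermis as well. All 8 with at least 1 FPKM were below the median gene, 6 by 2-fold, and their summed level went from 414 to 119.9 FPKM, while that of the muscle genes went from 137 to 79.5 FPKM. Col1a1 and Twist2, which fibroblasts express, went from 149 to 27.7 and from 5.34 to 1.39 FPKM. Of 6 keratinocyte markers without a failed estimate, 5 were 2-fold lower, with a median of -1.40. Their part in the muscle values was not tested. Of 83 muscle genes outside the 40, only 22 had a fold in epidermis, so that most were left out by the filter. The satellite and myoblast list had 0 genes with a fold, and its summed level went from 2.06 to 0.51 FPKM. The sums of the triad and endplate lists went from 61.9 to 126 and from 12.8 to 32.9 FPKM. The 22 genes with a fold did not share the lower median of the members. Among them was Hspb1, at 2072 and 2131 FPKM, above its 286 and 179 FPKM in dermis. Of these 22 genes, 2 were 2-fold higher and 1 was 2-fold lower, with a median of 0.08. Over all genes, 3.49% were 2-fold higher and 4.86% lower. The 2 higher genes were Kcnj12 and Ache, the acetylcholinesterase, which went from 48.2 to 111 and from 11.9 to 32.4 FPKM. These levels were above those in dermis, where both were between 1.41 and 6.12 FPKM.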

How the data were processed

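RNA of 8 libraries was measured by sequencing of TruSeq libraries from Trizol-extracted skin, per the labels' protocols. The submitters' processing notes name Cuffdiff 1.3.0, Cufflinks, TopHat 1.3.2, Bowtie 0.12.7.0 and build mm9, with no roles, and strand handling is not given in the sources used here. FPKM deposited by the authors, to 2 decimals, list 1 row per RefSeq transcript, and the E16.5 columns give 1 value per group of 2 libraries, per the file headers. The authors' deposited p-value and q-value columns come from the same tables. FPKM were summed per symbol, and folds are log2((mutant + 1)/(control + 1)) minus the median over genes with at least 1 FPKM, which understates low genes. Symbols with a failed estimate were left out of folds.

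At E16.5 the SE of each deposited log2 fold was the fold divided by the deposited statistic. This error comes from Cuffdiff's model and does not measure how animals vary. The fold minus the median transcript was tested against this SE, with Benjamini-Hochberg adjustment over 19584 transcripts (Python 3.11.15, scipy 1.17.1). The procedure was also run on simulated data with noise drawn from these same SEs, which cannot check whether the SEs are right. Where a transcript was listed at 0 in 1 group, the deposited call was used. Genes count as called if at least 1 transcript passed and no transcript passed in the opposite direction. E18.5 had 1 library per group and no test. The members and lists were chosen with earlier results of these data known, and all members could be named, with the 2 highest and 2 lowest genes of other lists. Krt5, Twist2, Nppa, Mybpc3, Pln, Tnnt2, Sgca, Actg2 and the collagen genes were named outside that rule, after their values were seen. Other pseudocounts, filters, thresholds and references, and the most abundant transcript alone, were tried as alternatives. Locus starts were raised by 1. Near-identical myosin genes may share reads.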

Additional observations from a re-analysis of the deposited data

Results flagged for a closer look

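The muscle genes went in opposite directions in the separated tissues at E18.5. Relative to the median gene, their median log2 fold in dermis was 1.47 and in epidermis -0.49, and of 18 members with a fold in both tissues, 16 were above the median gene in dermis and below it in epidermis. The exceptions were Itgb1bp2 and Mybph. In epidermis, Myl1, Myh8, Actc1, Tnnt1 and Sln passed the filter of 1 FPKM through the control library only, and Mybph through the mutant library only. The direction of these genes there is tied to the filter, and all of them but Mybph are in the count of 16. The authors' deposited table marked 19 member transcripts in dermis, all higher, and 1 in epidermis, which was lower. Each tissue has 1 library per group, and the difference between the tissues was not tested.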

How the results depend on the processing

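At E16.5 the direction depends on centring: without it the median member fold was 0.29 in place of -0.13, and with no filter on low values 0.04. The authors' deposited calls gave 17 members higher and 0 lower, against 0 and 7, with positive folds for Tnnc1 (0.057), Myod1 (0.007) and Mybph (0.042). At a threshold of 0.01, 3 members were lower, and with the most abundant transcript of each gene 4. In dermis, the median fold was 1.78 with a pseudocount of 0.1 and 1.74 at a minimum of 5 FPKM, against 1.47. The count of 28 members stayed between 24 and 35 under every alternative run. Of 194 recomputed folds of these 28 genes, 189 stayed past 2-fold and 5 did not, and 0 changed sign. In epidermis, the median of -0.49 was -0.23 with a pseudocount of 5 and -0.26 with no filter. The 5 lower members became 8 with a pseudocount of 0.1, 0 with a pseudocount of 5, 3 at a minimum of 5 FPKM and 8 at 1.5-fold. The higher members went from 0 to 1 with a pseudocount of 0.1 and to 1 at 1.5-fold. With the most abundant transcript alone, 11 shares of troponin I, troponin T and alkali light chain forms moved by over 5 percentage points. Apart from these settings' own construction, the cause was not tested. No paired analysis was possible because each E16.5 column is already a pool of its 2 libraries. Each E18.5 column gives 1 value for a group whose labels list 1 library. For the same reason no replicate could be left out.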
